A study of Mus musculus with 10 samples.

Results

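The response of naive CD4 T cells to 2 h of PMA with ionomycin was described across genes and across the transcripts of single genes, in the 5 vehicle libraries of a study of 10 RNA libraries. PMA is a phorbol ester that takes the place of diacylglycerol and switches on protein kinase C, which feeds the Ras, MAP kinase and NF-kB pathways. Ionomycin is a calcium ionophore; calcium activates the phosphatase calcineurin, which dephosphorylates NFAT and lets it enter the nucleus, where it often binds DNA beside the AP-1 dimers of FOS and JUN proteins. Together they bypass the T cell receptor and drive the immediate-early, cytokine and growth genes for which T cell activation is known.

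The cells came from the spleens of C57BL/6 mice, were sorted as naive CD4+CD69- cells and were held for 1 h in DMSO, the vehicle. A set of 3 libraries was then left unstimulated, and 2 libraries received 10 nM PMA with 1 µM ionomycin for 2 h. The other 5 libraries, treated with 12.5 µM Compound 10 in place of DMSO, entered the fits only to estimate the spread between libraries. The labels give no ages and do not say whether libraries of a group come from separate mice, so the p-values below measure the spread between these libraries, which may be technical. With n = 3 and n = 2, an exact permutation test of a single value could not reach 0.05, and each adjusted p below is from edgeR's quasi-likelihood test over all genes.

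Estimated counts totalled 14382600, 16093611 and 27857586 in the unstimulated libraries and 10694591 and 14913786 in the stimulated ones. The third unstimulated library stood apart from its group: counts of genes differed from the other 2 with chi-square values of 120 and 91.8 per degree of freedom, against 16.1 between those 2 and 24.8 between the stimulated pair. The 20 most counted genes took 13.3 to 14.7% of counts before and 25.2 and 20.9% after stimulation. Ribosomal RNA gene models took 3.62, 2.71 and 1.24% before and 8.65 and 4.86% after; with them left out 5622 genes were called. All values are relative to the rest of a library; RNA per cell was not measured. In bulk RNA, fewer cells of a type and less RNA per cell cannot be told apart. The 12 T cell identity genes summed to 2051 to 2125 CPM (counts scaled to a common library size) unstimulated and 4102 to 4506 stimulated. B cell markers summed to 25.4 to 44.2 and 47.6 to 66.2 CPM, with Pax5, Cd79b and Fcrla under 1 CPM in every library. Most of that sum was Ighm, at 20.98 to 35.84 CPM and then 42.2 and 58.3 CPM, and 1 of 7 tested B cell markers was called higher. CD8 markers summed to 3.72 to 6.83 and 10.5 CPM, and NK cell markers to 1.21 to 2.19 and 4.51 to 8.45 CPM. Regulatory T cell markers summed to 53.4 to 62.8 and 202 to 250 CPM. Most of the stimulated sum was Il2ra, at 152 and 184 CPM, the receptor chain described below, and 1 of 5 tested markers was called higher. Foxp3 measured 2.63 to 4.92 CPM before and 4.81 and 6.84 CPM after. Memory and effector markers summed to 91.2 to 101 and 343 to 370 CPM, and 7 of 9 tested were called higher. Most of the stimulated sum was Il2rb, at 157 and 166 CPM, and Id2, at 106 and 125 CPM. Myeloid markers summed to 25.3 to 34.8 and 25.9 to 30.9 CPM, with 10 of 12 (Lyz2, Itgam and Csf3r among them) under 1 CPM throughout, and the 6 erythroid markers were all under 1 CPM. The part of other cells in the results was not tested.

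Of 14417 genes tested, 5617 (39.0%) passed an adjusted p of 0.05; 2814 (19.5%) were higher and 2803 (19.4%) lower after stimulation. A change of 4-fold or more was seen for 778 genes upward (5.4%) and 530 downward (3.68%). In 62.5% of all genes tested the libraries of the groups did not overlap. Genes called higher held 36.5 to 43.3% of the TPM total (a level per transcript length) before and 66.6 and 63.5% after stimulation. The genes called higher by 4-fold or more went from 2.04 to 2.90% to 16.1 and 15.2% of the total. The equal split rests on TMM scaling, which sets the bulk of genes to no change. Scaled to library totals alone, the median over all genes moved from -0.06 to -0.83 on the log2 scale and 1202 genes were called higher and 6610 lower, so that changes below are relative to the bulk of genes. Under that scaling the medians of several lists below turned from above 0 to below it. These were ribosomal proteins, translation initiation, one-carbon with polyamine and nucleotide synthesis, and RNA polymerase. Others were BCL2, cytokine receptors, homing, T cell receptor signalling and the calcium list. The median of the sterol and fatty acid synthesis list also turned, from 0.28 to -0.49. So did those of splicing regulators, stress response genes, tRNA synthetases, RNA helicases and nuclear transport. The same held for GIMAP, circadian clock and interferon response genes and for the list of noncoding host RNAs. Without the first stimulated library 3568 genes were called, 1543 of them lower. Without the second, 3958 were called. Genes of a list beyond those picked by a fixed naming rule, such as members that did not pass the test, were named after their values were seen.

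The 12 largest rises included genes of cytokines, surface proteins, transcription factors, a lipase and a lipid transporter. Il2, the T cell growth factor interleukin 2 (ENSMUSG00000027720), measured 0.110, 0.0466 and 0.0287 CPM unstimulated, or 4 counts in all, and 345 and 381 CPM stimulated. Its log2 fold change was 12.54 ± 0.38 (standard error, SE), with adjusted p = 9.37e-09. Ccl4, a chemokine, went from 0.0548, 0.0466 and 0.201 CPM to 58.3 and 86.9 CPM. Cd40lg, the ligand through which CD4 T cells license B cells, went from 65.0, 35.6 and 26.4 CPM to 5799 and 4796 CPM, and Tnf from 46.6, 30.1 and 22.7 CPM to 4237 and 3511 CPM. In each of these genes every stimulated library lay far above every unstimulated one. Egr3, an immediate-early zinc finger factor, rose from 0.419 to 1.04 CPM to 112 and 94.3 CPM. Irf4, a factor induced by receptor signal strength, rose from 4.07 to 9.09 CPM to 907 and 816 CPM. The remaining genes of the 12 were Lipg, Sema7a, Slamf7, Mfsd2a, Trib1 and Nfkbid, with log2 fold changes from 6.33 (Nfkbid) to 7.71 (Lipg).

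**Figure D1:**
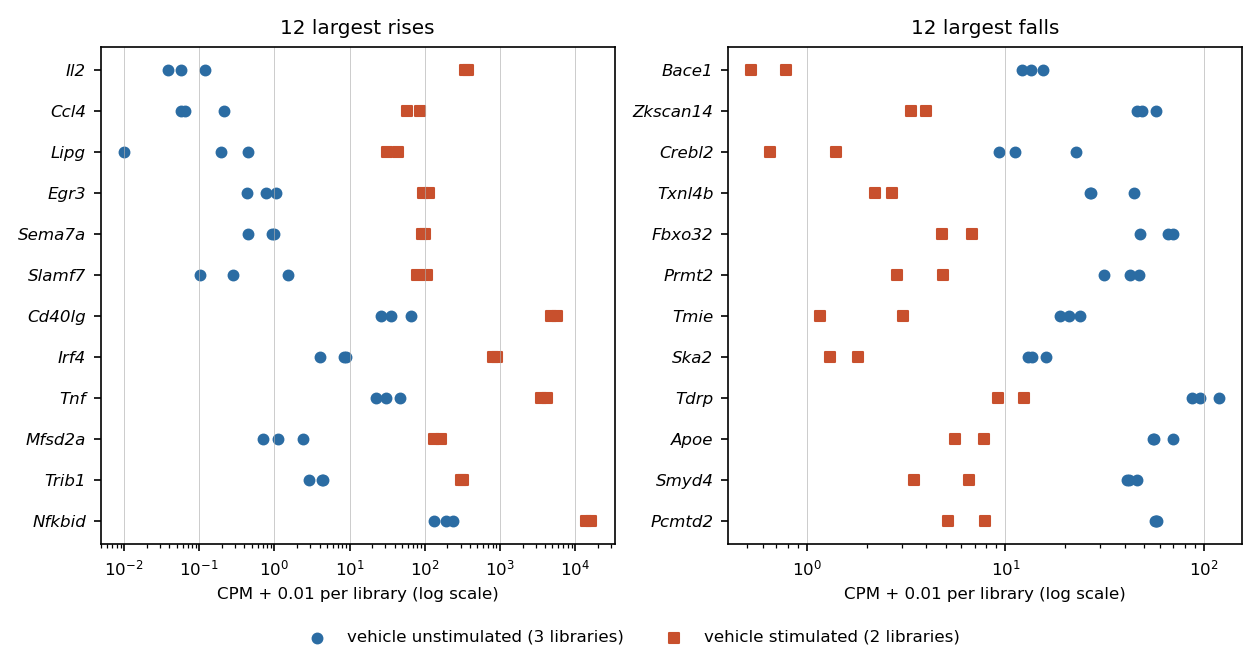
CPM of the 12 largest rises and 12 largest falls among genes whose log2 CPM averaged 3 or more, 1 point per library on a log axis after adding 0.01. Circles are the 3 unstimulated and squares the 2 stimulated vehicle libraries; in none of the 24 genes do the groups overlap.

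The rule for complete induction (under 0.5 CPM in every unstimulated and at least 20 CPM in every stimulated library) was met by 5 genes, and its reverse by 0. They were Il2, Ccl4, Lipg (an endothelial-type lipase), F3 (tissue factor, which starts coagulation) and Bcat1 (a cytosolic enzyme of branched-chain amino acid transfer). F3 measured 0.219, 0.0932 and 0 CPM before and 26.7 and 26.6 CPM after, and Bcat1 0.383, 0.280 and 0.0574 CPM before and 21.6 and 22.2 CPM after. The log2 fold changes of F3 and Bcat1 were 8.18 ± 0.64 and 6.62 ± 0.64.

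In the promoters of genes called higher by 4-fold or more, AP-1, NFAT, NF-kB and EGR motifs had higher shares than in the other response classes. Motifs were searched on both strands of the 300-base RefSeq windows (GRCm38.p6; 250 bases before to 50 after a start), and a gene counted once if any of its windows matched; 9249 of 11732 tested coding genes had a window. AP-1 (TGANTCA) matched in 12.6% of the 443 strongly higher genes, 4.50% of the 333 genes lower by 4-fold or more and 5.73% of genes not called. NFAT (TGGAAA) matched in 25.3%, 20.4% and 19.4%, NF-kB (GGGNNNTTCC) in 10.8%, 8.41% and 6.81%, and EGR (GCGTGGG) in 14.7%, 10.2% and 9.39% of the same classes. CRE (TGACGTCA) matched in 5.19%, 3.90% and 3.41%, and the CArG box of SRF in 1.81%, 1.5% and 1.5%. The E-box (CACGTG), the site of MYC and its partners, had its highest share, 15.7%, in the 1429 genes that rose by less than 4-fold, against 12.9% in the strongly higher genes. Over all 32851 windows of the table the shares were 7.81% for AP-1, 21.4% for NFAT, 5.56% for NF-kB, 5.04% for EGR, 1.79% for CRE, 1.63% for SRF and 7.15% for the E-box. None of these shares was tested, and a match is not evidence of binding.

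**Figure D2:**
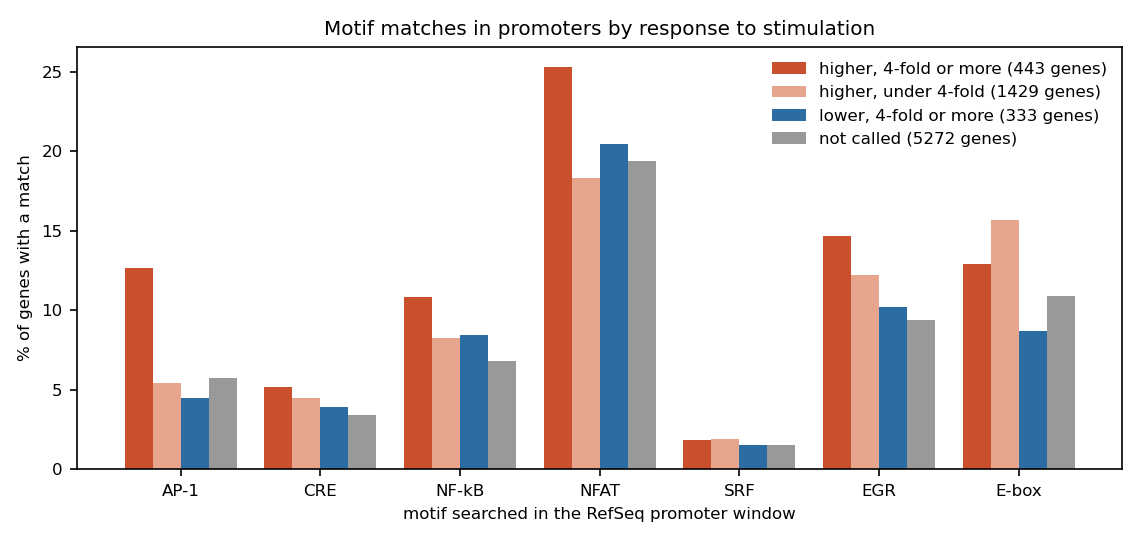
Percentage of genes with at least 1 match to each motif in a RefSeq promoter window, for 4 response classes. The AP-1 share of genes higher by 4-fold or more, 12.6%, is above that of the other classes shown, which lie between 4.50 and 5.73%.

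Of the 443 strongly higher genes 189 held none of the 7 motifs, as did 2942 of the 5272 genes not called. Windows without a match included those of Sema7a, Irf4, Mfsd2a and Nr4a1. The 200 bases before the start are printed for 4 strongly higher genes chosen because their windows hold matches, 5′ to 3′ on the gene's strand, with matches in capitals. Il2 (chr3:37125955-37126154, minus strand) holds 1 NFAT match, on the opposite strand, beginning 47 bases before the start; Slamf7 (chr1:171649000-171649199, minus strand) holds NFAT and AP-1 matches beginning 77 and 42 bases before it. Nfkbie (chr17:45555500-45555699, plus strand) holds AP-1 and NF-kB matches beginning 156 and 106 bases before the start, and the second of 3 listed starts of Nfkbid (chr7:30422206-30422405, plus strand) holds NF-kB and CRE matches beginning 181 and 51 bases before it.
Il2: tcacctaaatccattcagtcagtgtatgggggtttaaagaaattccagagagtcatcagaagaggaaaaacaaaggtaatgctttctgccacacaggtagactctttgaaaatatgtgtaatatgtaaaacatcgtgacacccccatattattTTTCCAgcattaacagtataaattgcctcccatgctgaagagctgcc
Slamf7: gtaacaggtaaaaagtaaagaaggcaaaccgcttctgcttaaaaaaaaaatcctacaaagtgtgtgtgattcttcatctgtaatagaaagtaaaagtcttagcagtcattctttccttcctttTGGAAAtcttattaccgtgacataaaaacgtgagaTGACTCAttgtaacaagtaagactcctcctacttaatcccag
Nfkbie: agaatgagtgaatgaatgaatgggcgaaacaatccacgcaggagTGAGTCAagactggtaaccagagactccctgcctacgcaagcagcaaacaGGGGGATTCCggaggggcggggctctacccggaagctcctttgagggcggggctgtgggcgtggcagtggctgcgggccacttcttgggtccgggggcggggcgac
Nfkbid: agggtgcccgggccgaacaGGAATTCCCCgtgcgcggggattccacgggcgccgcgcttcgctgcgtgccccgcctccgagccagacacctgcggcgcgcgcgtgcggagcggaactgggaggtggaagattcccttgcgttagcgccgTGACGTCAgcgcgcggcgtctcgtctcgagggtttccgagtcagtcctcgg

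Cytokine and chemokine genes were the list with the highest median. Of 27 tested, 22 were called higher and 2 lower, with a median log2 fold change of 5.06 beside -0.06 over all genes. Il3, Xcl1 and Csf2 had 0 counts in all 3 unstimulated libraries; set against 3 counts over that group they were at least 143-fold, 120-fold and 93.9-fold higher. In the stimulated libraries Il3 measured 6.31 and 5.19 CPM, Xcl1 4.64 and 5.02 CPM and Csf2 2.70 and 4.85 CPM, so these 3 were far less counted than Il2. Tnfsf11 (RANK ligand) rose from 1.86 to 2.41 CPM to 127 and 96.5 CPM, and Fasl (Fas ligand) from 4.89 to 5.37 CPM to 191 and 145 CPM. Ifng, the signature T helper 1 cytokine, was called at a low level, 0.0466 to 0.110 CPM before and 3.61 and 4.85 CPM after. Il16, a cytokine made from a stored precursor, was the clearest fall, from 117 to 155 CPM to 29.4 and 37.8 CPM (-1.998 ± 0.22, adjusted p = 3.11e-05). Osm, the other member called lower, lost its call without the first stimulated library (-1.09 ± 0.37 with all libraries, adjusted p = 0.0347) and without the first unstimulated one.

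Immediate-early transcription factors rose almost as a class: 25 of 29 tested were called higher and 1 lower, with a median of 3.27. All 3 NR4A orphan nuclear receptors rose, Nr4a3 from 64.6 to 98.0 CPM to 5159 and 4072 CPM (5.81 ± 0.22) and Nr4a1 from 490 to 839 CPM to 31385 and 28744 CPM (5.57 ± 0.23, adjusted p = 3.06e-08). By TPM, Nr4a1 went from a mean of 468 to 12802, among the highest levels per length in the stimulated libraries. All 4 EGR genes were called higher, Egr2 from 43.1 to 106 CPM to 1476 and 1586 CPM, while Egr4 had 1 count before and 71 after. Among the AP-1 subunits Fosl1 rose by 5.38, Fosb by 3.63, Fosl2 by 3.27, Fos by 3.20, Jun by 1.60 and Junb by 1.18 on the log2 scale, while Jund (0.96) did not pass the test. Csrnp1, a nuclear protein induced by many stimuli, rose by 3.66 ± 0.16. Klf6, a Krüppel-like factor that is immediate-early in other cells, fell from 287 to 333 CPM to 75.2 and 87.7 CPM (-1.96 ± 0.15, adjusted p = 2.05e-06).

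**Figure D3:**
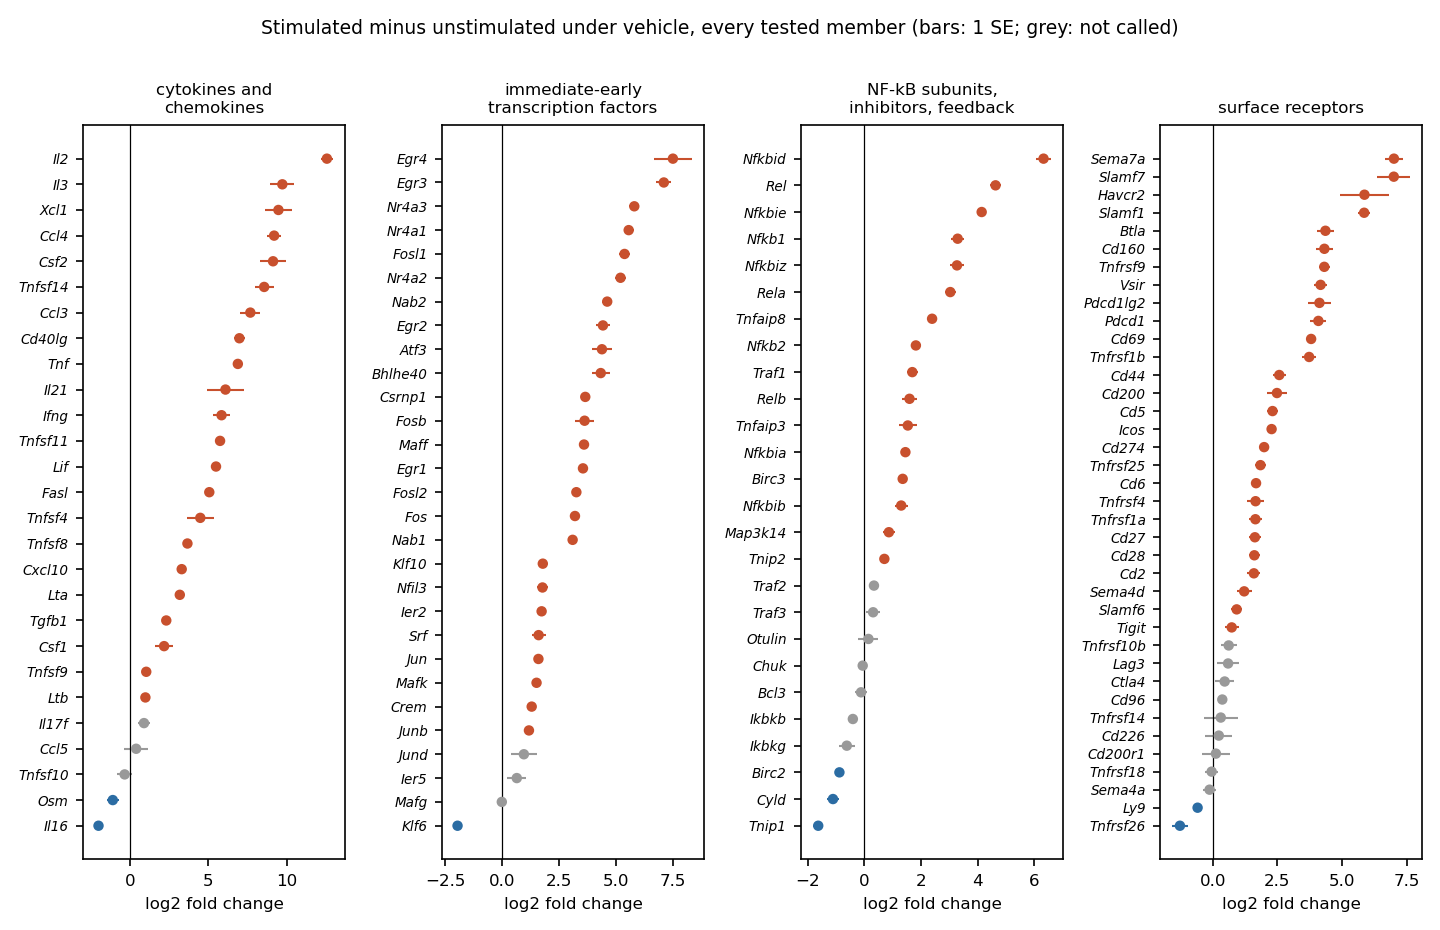
Log2 fold change, stimulated minus unstimulated, of every tested member of 4 lists, with bars of 1 SE; red and blue points passed an adjusted p of 0.05 and grey points did not. Fitted values of genes with 3 or fewer unstimulated counts (Il3, Xcl1, Csf2, Tnfsf14, Ccl3, Il21, Egr4, Havcr2) depend on the prior count of the fit.

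Of 26 NF-kB pathway genes tested, 16 were higher and 3 lower (median 1.33), and 12 and 7 when scaled to totals alone. The subunit genes Rel, Nfkb1, Rela, Nfkb2 and Relb were all called higher, Rel from 109 to 157 CPM to 3352 and 2992 CPM. Inhibitors of the IkB family also rose: Nfkbie went from 15.7 to 20.3 CPM to 326 and 328 CPM (4.15 ± 0.16), and Nfkbid, the nuclear inhibitor IkBNS, from 134 to 238 CPM to 16421 and 13908 CPM. Genes called lower were the adaptor Tnip1 (-1.62), the deubiquitinase Cyld (-1.10) and the ubiquitin ligase Birc2 (-0.87). The kinase complex genes Chuk, Ikbkb and Ikbkg measured -0.05, -0.40 and -0.61 and did not pass the test.

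MAP kinase feedback genes had 15 of 21 tested members higher and 1 lower (median 1.53). Dusp5, a phosphatase that removes phosphate from nuclear ERK, rose from 141 to 194 CPM to 2190 and 2248 CPM. Spry1, a Sprouty inhibitor of Ras signalling, rose from 0.839 to 2.55 CPM to 104 and 112 CPM, and Ier3 from 4.56 to 9.26 CPM to 115 and 118 CPM. Dusp10, which acts on JNK and p38, was the member called lower (-0.68 ± 0.15), but not without the first stimulated library.

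A list of NFAT factors, calcineurin and anergy-linked genes had 6 of 22 tested members higher (27.3%) and 5 lower (22.7%), shares near those of all genes (median -0.19). Nfatc1, the family member with an inducible promoter, rose from 72.3 to 98.6 CPM to 1181 and 1105 CPM (3.70 ± 0.20, adjusted p = 1.72e-07). Nfatc2, the main NFAT of resting T cells, measured 13.02 to 20.8 CPM before and 5.15 and 7.96 CPM after (-1.44 ± 0.36, adjusted p = 0.00789); it lost its call without the first stimulated library. Without the first and the second stimulated library 2 and 3 members of the list were lower. Nfatc3 measured -0.27 and did not pass the test. Rcan3, a regulator of calcineurin, fell by 1.79 ± 0.31. Of the calcium entry genes, Orai1, the pore subunit of the store-operated channel, rose from 28.4 to 35.7 CPM to 368 and 336 CPM, and the calcium pumps Atp2b1 and Atp2a2 rose by 1.76 ± 0.15 and 1.44 ± 0.16.

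Surface receptors of costimulation and inhibition had 27 of 38 tested members higher and 2 lower (median 1.66). Cd69, an early marker against which the cells had been sorted, rose from 288 to 330 CPM to 4077 and 4354 CPM (3.80 ± 0.13). Slamf1, a receptor of the SLAM family, rose from 10.7 to 14.5 CPM to 706 and 757 CPM, and Tnfrsf9 (4-1BB) from 3.78 to 4.52 CPM to 79.8 and 82.9 CPM. Pdcd1 (PD-1) rose from 2.57 to 3.63 CPM to 49.6 and 53.6 CPM. Ctla4 (0.46) and Lag3 (0.59) did not pass the test. Ly9 (-0.58) and Tnfrsf26 (-1.27) were called lower, but neither without the first stimulated library.

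Of 41 cytokine receptor, JAK, STAT and SOCS genes tested, 18 were higher and 7 lower. Il2ra, the inducible alpha chain of the interleukin 2 receptor, rose from 3.96 to 5.20 CPM to 152 and 184 CPM (5.14 ± 0.25). The feedback inhibitors Socs1 and Cish rose by 4.15 ± 0.22 and 3.52 ± 0.19. Ifngr1 and Ifngr2, the chains of the interferon gamma receptor, fell from 245 to 287 CPM to 74.2 and 74.7 CPM and from 91.5 to 109 CPM to 41.3 and 38.7 CPM. Stat2, a factor downstream of type I interferons, fell by 1.67 ± 0.22. The median of the list was 0.41, and -0.37 when libraries were scaled to their totals alone.

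Naive and quiescence factors went both ways: 14 of 38 tested were higher and 13 lower (median -0.12), against 5 and 22 when scaled to totals alone, and 9 were higher without the second stimulated library. Tsc22d3, a glucocorticoid-induced factor, fell from 251 to 320 CPM to 45.6 and 70.9 CPM (-2.32 ± 0.21). Pik3ip1, a brake on PI3 kinase, fell from 59.7 to 73.7 CPM to 18.2 and 25.4 CPM, and the stress-induced Sesn1 from 155 to 162 CPM to 67.7 and 68.5 CPM. Klf2, which maintains the homing programme of naive T cells, fell from 117 to 158 CPM to 34.1 and 44.2 CPM, and Tcf7 from 199 to 250 CPM to 119 and 146 CPM. The antiproliferative genes Btg2 and Tob2 rose by 1.97 ± 0.13 and 2.03 ± 0.17, and the repressor Gfi1 went from 0.164, 1.54 and 1.89 CPM to 33.1 and 48.4 CPM.

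Of 28 homing and adhesion receptors tested, 9 were higher and 3 lower (median 0.09), and 4 were higher without the second stimulated library. Scaled to totals alone, 5 were higher and 15 lower and the median was -0.69. S1pr4 and S1pr1, receptors for the lipid that draws T cells out of lymph nodes, fell from 149 to 200 CPM to 18.8 and 24.0 CPM and from 157 to 179 CPM to 33.0 and 51.7 CPM. Gpr183, the oxysterol receptor that guides cells to follicle borders, rose from 18.97 to 21.1 CPM to 177 and 182 CPM. Ccr7, the receptor that brings naive T cells into lymph nodes, measured -0.20 and did not pass the test.

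T cell receptor signalling genes had 16 of 37 tested members higher and 4 lower (median 0.14, and -0.64 when scaled to totals alone), and 2 lower without the first stimulated library. Ptpn22, a phosphatase that dampens receptor signals, rose from 206 to 277 CPM to 2775 and 2643 CPM. Lcp2 (SLP-76) rose from 24.7 to 38.98 CPM to 284 and 272 CPM, while Cd4 (-0.07), Cd3d (0.05) and Cd3g (0.10) did not pass the test. The receptor chain constant gene Trac rose from 260 to 262 CPM to 1295 and 1392 CPM, and the related regulators Ubash3b and Ubash3a moved in opposite directions, by 2.82 ± 0.19 and -1.36 ± 0.21.

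Survival and death genes of the BCL2 family had 7 of 16 tested members higher and 2 lower. Bcl2a1b went from 14.5 to 17.5 CPM to 537 and 475 CPM and Bcl2a1d from 2.85 to 5.13 CPM to 82.3 and 105 CPM; these antiapoptotic genes are near-identical copies, so the division of reads between them is uncertain. Bcl2l11 (BIM), which promotes death, rose by 1.79 ± 0.15, and the other death promoters Bad and Bbc3 (PUMA) fell by 2.89 ± 0.21 and 2.38 ± 0.38.

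Myc, the driver of growth-related transcription, rose from 27.8 to 37.4 CPM to 2596 and 2585 CPM (6.32 ± 0.18, adjusted p = 6.25e-09), the smallest adjusted p among the named genes. Its obligate partner Max fell from 53.2 to 79.5 CPM to 22.02 and 26.6 CPM (-1.42 ± 0.25, adjusted p = 0.000961), and the competing factor Mxd4 fell by 1.40 ± 0.22. Nucleolar ribosome biogenesis factors, many of them known Myc targets, had 55 of 66 tested members higher and 1 lower, with a median of 1.28 (37 higher, 7 lower and a median of 0.51 when scaled to totals alone). Gnl3 (nucleostemin) rose from 53.0 to 54.2 CPM to 325 and 342 CPM, Ppan from 52.9 to 61.0 CPM to 413 and 378 CPM, and Tsr1 from 41.7 to 48.2 CPM to 261 and 267 CPM. The 1 member called lower, Ddx10 (-0.39 ± 0.14, adjusted p = 0.0488), lost its call under several alternatives.

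The gene sets of protein synthesis moved by smaller steps. Cytosolic ribosomal proteins had 43 of 80 tested members higher and 0 lower (median 0.66), and 66 higher without the third unstimulated library; scaled to totals alone, 4 were higher, 0 lower and the median was -0.10. Translation initiation factors had 23 of 41 higher and 3 lower (median 0.56, and -0.21 scaled to totals alone), and 15 higher without the first stimulated library. Eif4e, the cap-binding protein, rose from 136 to 170 CPM to 409 and 433 CPM, and Eif1a from 56.3 to 66.6 CPM to 280 and 292 CPM. Chaperones had 22 of 30 higher and 0 lower (median 0.91), and 10 and 6 when scaled to totals alone (0.14): Hsp90aa1 rose from 821 to 863 CPM to 4216 and 4093 CPM, and Hspa5, the chaperone of the endoplasmic reticulum, from 2881 to 3137 CPM to 9968 and 10328 CPM. Of the RNA polymerase subunits 6 of 28 were higher (21.4%) and 5 lower (17.9%), shares near those of all genes, or 3 lower without the first stimulated library. Polr1b, of polymerase I, rose by 2.18 ± 0.23 and Polr2i, of polymerase II, fell by 2.40 ± 0.42.

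Metabolic genes rose selectively. Glycolysis and hypoxia genes had 17 of 27 tested members higher and 2 lower (median 1.13), and 12 and 9 when scaled to totals alone (0.36), among them Pgam1 from 81.0 to 93.3 CPM to 571 and 522 CPM and Ldha from 718 to 874 CPM to 3393 and 3225 CPM. Pdk1, a kinase that restrains the use of pyruvate in mitochondria, fell by 1.03 ± 0.19. Transporters of amino acids, glucose and iron had 14 of 24 higher and 1 lower (median 0.89), and 10 and 4 when scaled to totals alone (0.12): the amino acid carriers Slc38a1 and Slc7a1 rose by 4.29 ± 0.19 and 4.01 ± 0.21 and the transferrin receptor Tfrc by 3.58 ± 0.25. Polyamine synthesis rose at Odc1, its first enzyme (2.38 ± 0.21), Srm (2.32 ± 0.19) and Amd1 (1.78 ± 0.13), within a list of 36 one-carbon, polyamine and nucleotide synthesis enzymes with 18 higher and 5 lower. The sterol enzymes Sqle and Cyp51 rose by 2.95 ± 0.19 and 3.02 ± 0.20.

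Mitochondrial ribosomal proteins had 9 of 77 tested members higher (11.7%) and 25 lower (32.5%), with a median of -0.46. Nuclear-encoded respiratory chain subunits had 5 of 78 higher (6.41%) and 16 lower (20.5%), the latter close to the 19.4% of all genes, with a median of -0.37. Without the third unstimulated library the medians were -0.22 and -0.07, and with the replicate block -0.29 and -0.14. Without the first stimulated library the counts lower were 12 and 5. Respiratory chain members called higher numbered 1 without that library, 2 without any one of the first and second unstimulated and second stimulated libraries, and 9 without the third unstimulated one. Ndufv3, of complex I, fell from 55.7 to 59.0 CPM to 15.3 and 16.8 CPM (-1.84 ± 0.20), and Mrps5 from 31.6 to 36.5 CPM to 11.2 and 13.8 CPM, whereas Mrpl17 rose from 9.52 to 11.1 CPM to 57.4 and 55.7 CPM.

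**Figure D4:**
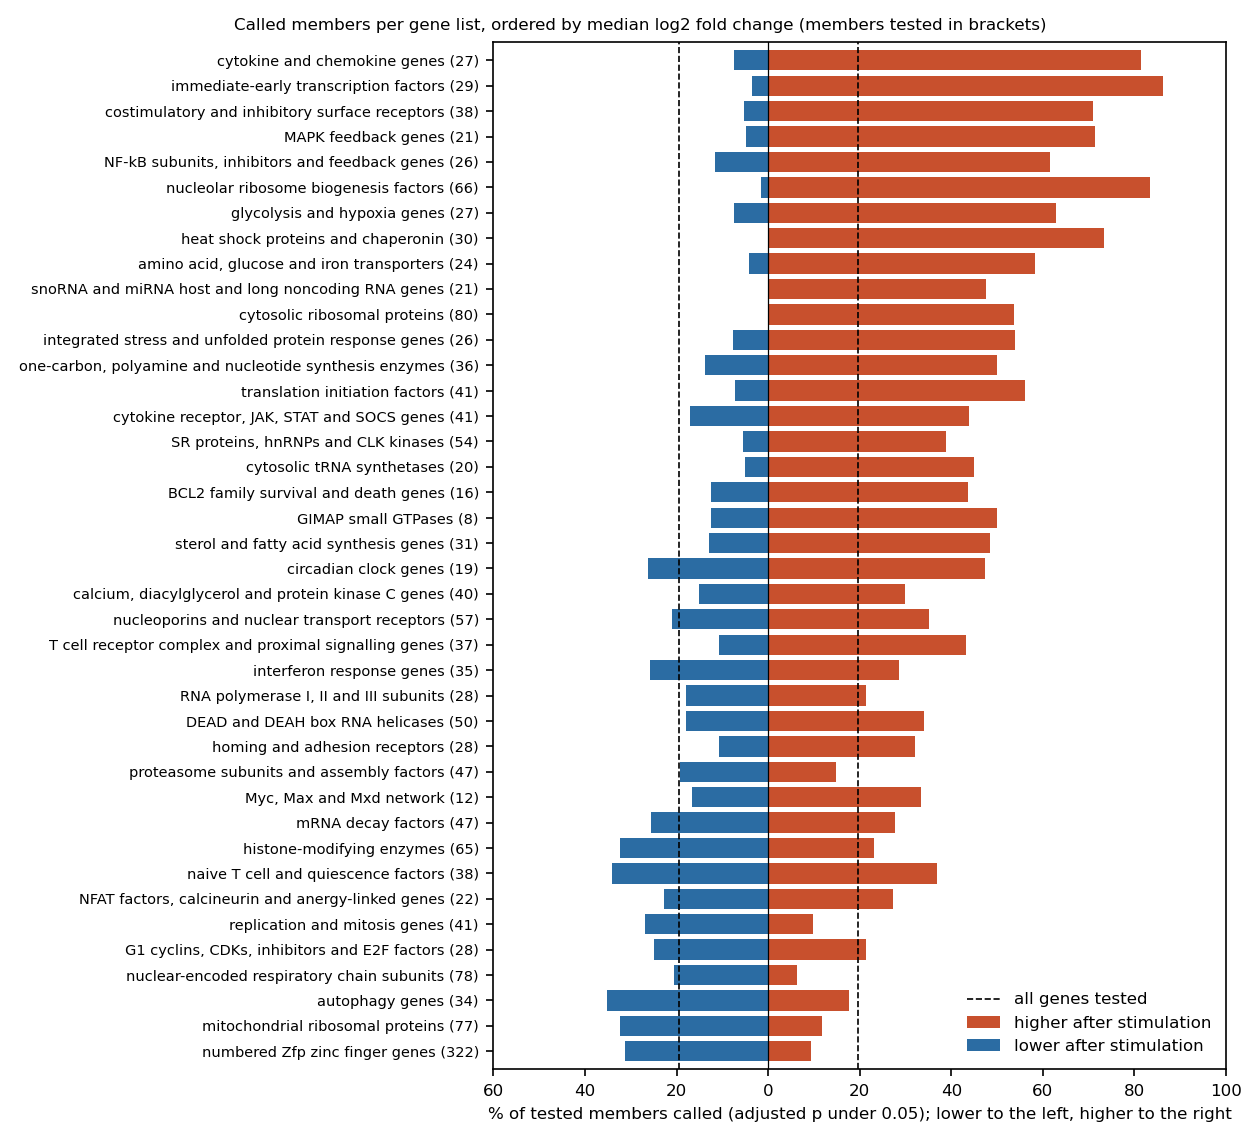
Percentage of tested members called higher (red, to the right) and lower (blue, to the left) for 40 gene lists, ordered by median log2 fold change; dashed lines mark the 19.5% and 19.4% of all genes tested. Ribosome biogenesis factors (55 of 66) and immediate-early factors (25 of 29) have the highest shares called higher.

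Of 28 regulators of G1 tested, 6 (21.4%) were higher and 7 lower, the former close to the 19.5% of all genes, and 3 were higher without either stimulated library. Ccnd2 (cyclin D2) rose from 329 to 442 CPM to 3704 and 3788 CPM, and the inhibitor Cdkn1a (p21) from 14.9 to 20.9 CPM to 488 and 499 CPM. Cdk2 and the pocket protein gene Rbl2, which holds cells in quiescence, fell by 1.59 ± 0.17 and 2.51 ± 0.31. Replication and mitosis genes had 4 of 41 higher (9.76%) and 11 lower (26.8%), and 6 lower without the first stimulated library; Pcna rose from 276 to 370 CPM to 1040 and 992 CPM while the helicase subunit genes Mcm7 and Mcm6 fell by 1.46 ± 0.19 and 0.86 ± 0.15.

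Among genes whose log2 CPM averaged 3 or more, Bace1 had the largest fall. Bace1, a membrane protease, fell from 12.1, 13.4 and 15.5 CPM to 0.515 and 0.779 CPM (-4.35 ± 0.39, adjusted p = 7.25e-06). Zkscan14, a zinc finger factor, fell from 45.9 to 57.2 CPM to 3.35 and 3.98 CPM (-3.78 ± 0.22). Fbxo32 (atrogin-1), a FOXO target in muscle, fell from 47.8 to 70.2 CPM to 4.76 and 6.75 CPM, and Apoe from 55.3 to 69.7 CPM to 5.54 and 7.79 CPM. The other 8 were Crebl2, Txnl4b, Prmt2, Tmie, Ska2, Tdrp, Smyd4 and Pcmtd2, between -3.12 (Smyd4 and Pcmtd2) and -3.76 (Crebl2). Below that level, Lztr1, named after its values were seen, went from 21.1, 9.93 and 8.49 CPM to 0 counts in both stimulated libraries, at least 84.8-fold lower against 3 counts over the group. By level per length the highest called falls included Rsrp1, from a mean TPM of 1732 to 311, Vps37b, from 936 to 136, and Maf1, the repressor of RNA polymerase III, from 773 to 122. At the other end, Srgn, the core protein of secretory granules, went from a mean TPM of 1327 to 11203 and Nfkbid from 180 to 8185. H2-K1, with the highest mean TPM of the called rises (12178 before, 15567 after), lost its call when libraries were scaled to totals alone, and reads of its near-identical class I relatives may be divided uncertainly.

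Numbered Zfp genes, mostly KRAB-type zinc finger repressors, had 30 of 322 tested members higher and 101 lower (median -0.54); 59 were lower without the first and 67 without the second stimulated library. Zfp386 fell from 48.2 to 54.3 CPM to 12.7 and 11.4 CPM. Members that rose included Zfp36 (tristetraprolin, 1.74 ± 0.22), which binds AU-rich elements and is no KRAB protein. Its relative Zfp36l1, in the list of mRNA decay factors, rose from 241 to 268 CPM to 4265 and 4078 CPM (4.02 ± 0.15). Of that list 13 of 47 tested members were higher (27.7%) and 12 lower (25.5%), against 19.5 and 19.4% of all genes. The nonsense-mediated decay genes Upf2 and Upf3b fell by 1.17 ± 0.18 and 1.31 ± 0.21, and the exonuclease gene Xrn1 by 1.52 ± 0.24. Histone-modifying enzymes had 15 of 65 higher (23.1%) and 21 lower (32.3%), the former close to the 19.5% of all genes. Fewer were lower without the first or without the second stimulated library. The demethylase gene Kdm6b rose from 78.8 to 178 CPM to 2479 and 2385 CPM. Dot1l rose from 33.1 to 43.4 CPM to 558 and 493 CPM, while Ehmt2 (G9a) fell by 2.13 ± 0.27. Autophagy genes had 6 of 34 higher (17.6%, close to the 19.5% of all genes) and 12 lower (35.3%). Atg13 fell from 116 to 147 CPM to 29.9 and 22.2 CPM, and Atg16l2 rose from 26.4 to 30.8 CPM to 377 and 309 CPM.

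Among long noncoding RNAs with a name other than a Gm number or Rik, 27 of 138 tested were higher and 10 lower. These shares were near those of all genes upward and below them downward, and unnamed models were not counted. Mir155hg, the host transcript of miR-155, rose from 1.48, 3.17 and 5.19 CPM to 145 and 207 CPM (5.70 ± 0.44, adjusted p = 2.26e-06), and Mir17hg, the host of the miR-17 to miR-92 cluster, from 24.2, 28.4 and 30.7 CPM to 106 and 109 CPM (1.95 ± 0.23). The libraries measure the hosts and not the mature miRNAs. Kdm6bos rose by 5.22 ± 0.37, but it lies antisense to Kdm6b and no strand-specific counting is stated, so reads of the pair cannot be told apart. Prox2os, at 1.32 to 1.96 CPM before, had 0 counts in both stimulated libraries, at least 10.0-fold lower against 3 counts over the group. The mature sequences that the rising hosts carry, from RefSeq (GRCm38.p6), are shown with the seed (bases 2 to 8) in capitals because the seed is the main part that pairs with targets.
mmu-miR-155-5p: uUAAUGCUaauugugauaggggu
mmu-miR-17-5p: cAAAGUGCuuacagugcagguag
mmu-miR-20a-5p: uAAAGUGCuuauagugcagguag
mmu-miR-18a-5p: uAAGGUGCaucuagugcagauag
mmu-miR-19a-3p: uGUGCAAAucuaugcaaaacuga
mmu-miR-19b-3p: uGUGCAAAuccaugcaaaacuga
mmu-miR-92a-3p: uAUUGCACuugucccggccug
The miR-17 and miR-20a arms share 1 seed and the miR-19a and miR-19b arms another. The miR-155 arm lies at chr16:84714143-84714165, and the cluster's arms shown lie between 115043684 and 115044496 on chromosome 14, each inside its host gene.

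Strongly higher genes had fewer exons and a shorter span than the bulk. The 591 coding genes higher by 4-fold or more had a median of 6 exons and a span of 17.8 kb, against 8 exons and 23.5 kb over all 11732 coding genes tested, and 14.6% had 2 exons or fewer against 7.79%. Their 3′ UTRs had a median of 1047 bases against 885, and 72.0% held an ATTTA pentamer, the core of AU-rich elements, against 64.2%. The 431 genes lower by 4-fold or more also had a median of 6 exons and a short span, 16.7 kb, but shorter 3′ UTRs (723 bases) and fewer with ATTTA (58.4%). Base level differed too: the medians before stimulation were 5.22 CPM for the strongly higher, 8.49 CPM for the strongly lower and 18.2 CPM for all coding genes. These are descriptions without a test.

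Transcript usage, the division of a gene's RNA among its annotated transcripts, was tested in 7152 genes with at least 2 tested transcripts; 210 (2.94%) passed an adjusted Simes p of 0.05. At the level of single transcripts 3051 of 37354 (8.17%) were higher and 2590 (6.93%) lower. Of the 210 genes, 67 were also called higher as genes, 51 lower and 92 neither. On simulated counts the usage test alone made more false calls than its threshold states, so the description rests on 19 switches. A switch needed a usage call, at least 5 TPM in every vehicle library, another leading transcript after stimulation, no overlap of libraries in the shares of both leading transcripts, and a change of at least 25 percentage points in each. With 1 library left out, 7 (without the second stimulated library) to 12 of the 19 were found again.

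**Figure D5:**
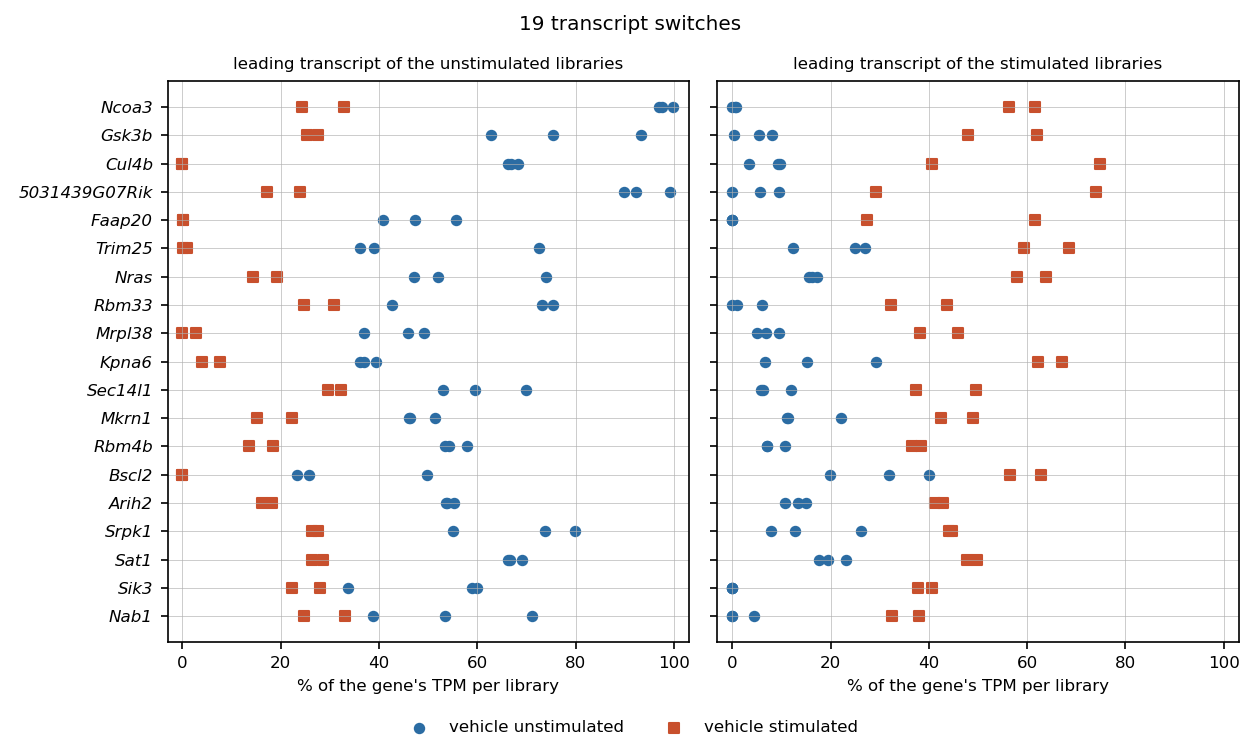
Share of a gene's TPM held by the transcript that leads in the unstimulated libraries (left) and by the one that leads in the stimulated libraries (right), for the 19 switches; circles are unstimulated and squares stimulated vehicle libraries. The rule requires that the groups do not overlap; Ncoa3 shows the largest smaller change of the 2 shares, from 98.2 to 28.6% and from 0.493 to 59.0%.

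In 17 of the 19 switches the transcript that led after stimulation was shorter. The 3′ ends of the 2 transcripts lay over 100 bases apart in 16 and the starts in 9. The switch was from a coding to a noncoding transcript (retained intron, nonsense-mediated decay or processed transcript) in 7, the reverse in 1 and between coding transcripts in 11. Among those 11, the 3′ UTR was shorter after stimulation in 9, longer in 0, and held fewer ATTTA pentamers in 7. One of these, Nab1-204, has no annotated 3′ UTR; over the 10 pairs with both annotated the counts were 8 and 6. By level, the transcript leading after stimulation was called higher in 13 switches, the one leading before was called lower in 12, and both held in 6. The gene itself was called higher in 6, lower in 6 and neither in 7. Shorter forms also prevailed in a wider set of genes that includes the switches. Among 4596 genes at 5 TPM or more, the mean transcript length weighted by TPM was lower after stimulation in 3178 (69.2%); in 1567 the libraries of the groups did not overlap, against 432 in the longer direction. Among the 183 usage-called genes, which include the 19 switches, it was lower in 147 (80.3%). Among the 4413 genes without a usage call it was lower in 3031 (68.7%). There the libraries of the groups did not overlap in 1469, against 419 in the longer direction. None of these shares was tested, and genes of the same 5 libraries are not independent of each other. The median change over the 4596 was small, -0.04 on the log2 scale, and the mean length over a whole library overlapped between groups: 1551, 1548 and 1406 bases unstimulated, the lowest in the third library, and 1509 and 1484 bases stimulated. Retained-intron transcripts held 6.499 to 7.43% of TPM before and 7.01 and 6.86% after.

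Of the switches, 5 kept their usage call in all 13 alternative settings of the test: Ncoa3, Sec14l1, Mkrn1, Arih2 and Sat1. That count covers the usage call and not the whole switch rule. No switch lost its call under the settings that changed only the scaling of whole libraries. Such settings act little on a test within a gene, so counts of settings passed include them. The smaller change of the leading shares was 58.5 percentage points in Ncoa3. In Sec14l1, Mkrn1, Arih2 and Sat1 it was 29.9, 29.2, 29.03 and 28.6 points, below the stricter share threshold that was also tried. Ncoa3, a coactivator of nuclear receptors, is on chromosome 2. Ncoa3-201 held 97.65, 97.02 and 99.8% of the gene's TPM unstimulated and 24.3 and 32.9% stimulated, and Ncoa3-202 0.790, 0.630 and 0.0600% and 61.6 and 56.4%. Both have 23 exons and a coding length that differs little (4209 and 4206 bases), but the 3′ UTR is 3099 bases in the first and 1327 in the second, and their 3′ ends lie 1772 bases apart. The gene as a whole did not pass the test (0.16 ± 0.25).

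Arih2, a ubiquitin ligase, rose as a gene from 183 to 209 CPM to 1477 and 1409 CPM (2.89 ± 0.17, adjusted p = 2.57e-07). The share of its coding Arih2-201 went from 53.6, 55.2 and 53.9% to 16.2 and 18.2%, and Arih2-204, annotated as a target of nonsense-mediated decay, went from 15.1, 13.3 and 10.7% to 41.2 and 42.9%; the levels of both rose, by 1.64 and 4.98 on the log2 scale. Mkrn1, another ubiquitin ligase, fell as a gene (-1.37), and its leading form passed from Mkrn1-201 (46.3, 51.4 and 46.1% to 15.2 and 22.3%) to the short Mkrn1-203 (11.2, 11.3 and 22.2% to 42.5 and 48.9%), whose coding length is 588 bases against 1443. Sat1, the enzyme that acetylates polyamines for breakdown, rose as a gene by 1.44; its coding Sat1-201 went from 69.1, 66.3 and 66.7% to 28.6 and 26.4% and the retained-intron Sat1-205 from 17.6, 19.5 and 23.2% to 49.7 and 47.7%. Sec14l1, a lipid-binding protein, rose by 1.38 and moved from Sec14l1-202 (59.6, 69.9 and 53.1% to 32.2 and 29.7%) to the processed transcript Sec14l1-205 (11.96, 5.83 and 6.19% to 37.4 and 49.5%).

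The other 14 switches lost their usage call under at least 1 setting. Gsk3b, a kinase that phosphorylates NFAT for nuclear export, moved from Gsk3b-201 (75.4, 62.9 and 93.2% to 25.4 and 27.7%) to Gsk3b-202 (5.37, 8.03 and 0.310% to 62.0 and 47.9%); the 3′ UTR is 5515 bases in the first and 210 in the second, with 11 and 1 ATTTA. It kept its call in 12 of 13 settings. Cul4b, a ubiquitin ligase scaffold called lower as a gene (-0.84 ± 0.25), moved away from its inner start by the estimated shares. Cul4b-201 held 66.8, 66.3 and 68.2% unstimulated and was listed at 0 in both stimulated libraries. Transcripts from the start 11671 bases upstream held 31.8 to 33.2% and then 100%. The gene measured only 5.91 and 6.77 TPM stimulated, so these values rest on low levels. Kpna6, an importin, moved from Kpna6-202 (36.2 to 39.5%, then 4.09 and 7.74%) to Kpna6-201 (6.69 to 29.3%, then 67.2 and 62.3%), whose starts lie 10288 bases apart, and rose as a gene by 1.46. Nab1, a corepressor of EGR factors, rose as a gene by 3.10 and moved to Nab1-204 (0, 4.39 and 0% to 38.1 and 32.6%). Cul4b, Kpna6 and Nab1 kept their calls in 9, 8 and 6 of 13 settings. The rest were 5031439G07Rik, Faap20, Trim25, Nras, Rbm33, Mrpl38, Rbm4b, Bscl2, Srpk1 and Sik3, called in 5 (Faap20) to 12 settings (Mrpl38, Srpk1 and Sik3).

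The same pairs of transcripts could be read in the libraries under Compound 10, 2 unstimulated and 3 stimulated. Their shares did not enter the switch rule, but their counts entered the fit behind the usage call, so the reading is not fully independent. Both shares moved in the same direction in 18 of 19 switches and without overlap of libraries in 13. Cul4b was the exception, with means of 60.8 and 28.5% for Cul4b-201 and 11.3 and 10.7% for Cul4b-203, unstimulated and stimulated. For Ncoa3 the means there were 96.2 and 28.6% for Ncoa3-201 and 1.07 and 54.7% for Ncoa3-202. These libraries carry the compound as well and entered the estimate of spread.

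Of 28 genes with alternative promoters or splicing described in T cells or activated cells, 24 could be tested for usage and 2 were called, Nfatc1 (adjusted p = 0.00045) and Ptprc (adjusted p = 0.0128). At Nfatc1, Nfatc1-203 held 32.5, 30.8 and 25.6% unstimulated and was listed at 0 in both stimulated libraries. Nfatc1-201, which ends at a nearer 3′ site, held 29.5, 30.7 and 24.4% and then 48.0 and 47.9%, and its level went from 6.03 to 11.7 TPM to 123 and 120 TPM. Nfatc1-204 appeared at 6.57 and 7.24%, and Nfatc1-202 changed little, from 38.0, 38.3 and 50.1% to 45.4 and 44.9%. At Ptprc (CD45), whose exon choice marks naive and memory T cells, the leading Ptprc-203 held 42.5 to 49.8% before and 43.5 and 45.7% after, and the call came from minor forms. Crem, Runx1, Lef1, Ikzf1 and the other panel genes tested did not pass.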

How the data were processed

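The members and gene lists were chosen with earlier results of these data known. RNA of 5 vehicle libraries, and of 5 Compound 10 libraries used for the spread alone, was made into libraries with a SMART-seq kit, per the labels' protocols. The authors used kallisto, cutadapt and mm10, per the submitters' processing notes; neither versions nor the annotation behind the transcripts is given there. The deposited values are estimated counts and TPM per transcript, per the file headers. Of 109617 transcript identifiers 108214 matched GENCODE release M21, and unmatched ones held 0.507 to 0.671% of counts. For each gene the estimated counts of its transcripts were added and the sum rounded to a whole number. Genes and transcripts were tested in edgeR 4.0.16 (R 4.3.3) with the quasi-likelihood test, TMM factors, the filter of filterByExpr, 1 coefficient per group over all 10 libraries and Benjamini-Hochberg adjustment; transcript usage was tested with diffSpliceDGE and a Simes p per gene. CPM are scaled by the TMM library size. The gene test, the usage test and the switch rule were tested on simulated data, where the usage test made more false calls than its threshold states. Shares are of the TPM summed over a gene's transcripts. Alternatives used DESeq2 1.42.0, limma 3.58.1, other scalings and filters, and left-out libraries. Named genes were the 12 largest rises and 12 largest falls (average log2 CPM of at least 3, no overlap), up to 3 called genes per list and direction by adjusted p, genes going from under 0.5 to at least 20 CPM or the reverse, the 10 highest TPM of called rises and of called falls, the 12 largest switches with the transcript panel, and 3 long noncoding RNAs per direction. Unnamed models, ribosomal protein, mitochondrial and receptor segment genes and pseudogenes were left out of the ranked parts and of the count of long noncoding RNAs.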

Additional observations from a re-analysis of the deposited data

How the results depend on the processing

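With DESeq2-type or upper-quartile factors, no filter, only the 5 vehicle libraries, DESeq2, limma voom or rRNA gene models left out, the counts of genes called stayed within 1.5 times those reported. Scaled to library totals alone, 1202 genes were higher and 6610 lower, and 1542 transcripts higher and 6071 lower; Atp5a1, Gimap1 and Mycbp then turned to -0.16, -0.059 and -0.139. Leaving out 1 library at a time gave 3568 to 5652 genes called (2025 to 2845 higher, 1543 to 2807 lower), 2408 to 4735 transcripts (1429 to 2609 higher, 979 to 2126 lower), 96 to 143 usage calls and 13 to 15 switches. Of the 19 switches reported, 12, 11 and 12 were among those found without unstimulated library 1, 2 and 3, and 10 and 7 without stimulated library 1 and 2. Of 255 named genes, 234 kept their call scaled to totals alone, 230 to 252 with a library left out and 253 to 255 otherwise. With limma, diffSplice called 684 genes with 52 switches, 14 of them among the 19. A test of the log ratio of a transcript to the rest of its gene, chosen after seeing the data, called 232 with 29 switches, 12 of them shared. A threshold of 40 percentage points left 7 switches and one of 20 TPM left 8; the cause of these differences between tools was not tested. Deviations of same-numbered libraries from their group means correlated at 0.10 and -0.014. The deviations of the 2 stimulated libraries mirror each other, so these values cannot show whether replicate numbers pair the libraries. With the replicate block 5964 genes (3002 higher, 2962 lower), 4492 transcripts (2561 and 1931), 155 usage calls and 13 switches were found. Where a left-out library leaves 1 stimulated library, it is assumed to vary like the other groups. Low counts limit members such as Il21 and Egr4, and no mature miRNA was measured.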
